A study of Mus musculus with 6 samples.

Results

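The mRNAs of the cytosolic ribosomal proteins were read in WT and *lincRNA-EPS* KO osteoclast precursors (OCPs). The set was taken by name from the deposited count table: protein coding genes whose symbol starts with Rpl or Rps and a number, together with *Rplp0*, *Rplp1*, *Rplp2* and *Rpsa*. The S6 kinases (Rps6k), the Rps19-binding protein genes and every symbol with -ps were left out. This rule found 88 genes of 57180 rows, 53 for the large 60S subunit and 35 for the small 40S subunit. The OCPs were bone marrow-derived macrophages, kept for 24 h with M-CSF (40 ng/ml), a macrophage growth factor. RANKL (40 ng/ml), the cytokine that starts osteoclast formation, was added for the next 48 h. WT cultures came from C57BL/6 mice and KO cultures from mice without lincRNA-EPS, a long noncoding RNA. There were 3 libraries per genotype and no untreated group. The study's statistics describe replicates as single mice or independent cultures, without saying which holds for these libraries, so p-values may measure only the spread between cultures.

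A ribosome is built from rRNA and one copy of nearly every ribosomal protein, and surplus protein that finds no partner is degraded in the nucleus. Growing cells spend much of their transcription on these genes. Their mRNAs typically begin with a terminal oligopyrimidine (TOP) tract, a C followed by a run of C and T, through which the kinase mTORC1 and the protein Larp1 set their translation and storage. Osteoclast precursors enlarge and fuse as they mature.

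Libraries held 17757351 to 19998611 estimated counts. The targeted transcript, listed as *Ttc39aos1*, had 20 to 41 counts per WT library and 0 in the KO libraries. A pair of libraries stood apart in the ribosomal protein genes. Of the 77 genes with a mean of at least 100 CPM (counts scaled to the library size after TMM), 75 were lower in WT replicate 2 than the mean of the other WT libraries. The median difference was -0.41 on the log2 scale, beside 0.03 for 2105 other genes of that level. KO replicate 3 was scattered instead. Its log2 ratio to KO replicate 1 had an SD of 0.47 over the 77 genes, against 0.05 between WT replicates 1 and 3. The 2105 other genes had SDs of 0.39 and 0.06 for these pairs. Counts over the whole set and the subunits are therefore given with and without both libraries. The choice rests on these same genes, so counts without both libraries are descriptions and not independent support.

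**Figure D1:**
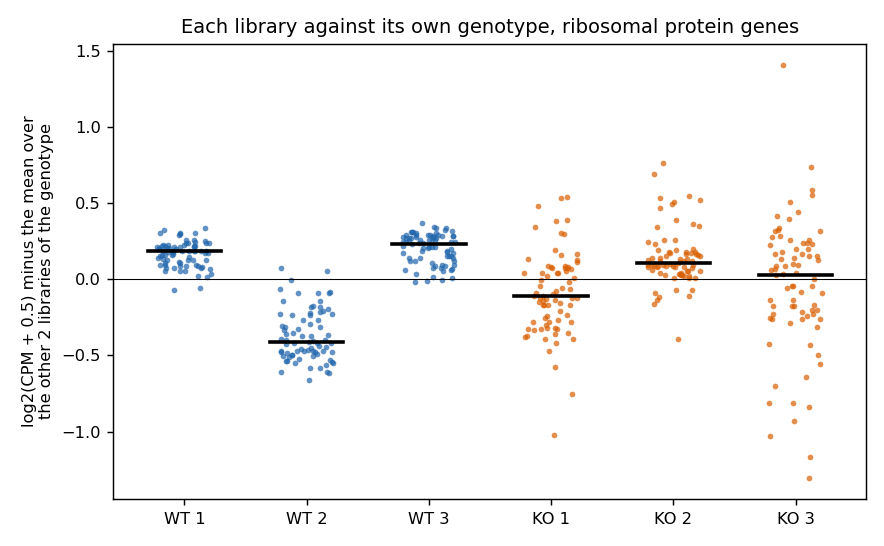
Each point is 1 of 77 ribosomal protein genes with a mean of at least 100 CPM, the y axis gives log2(CPM + 0.5) in a library minus the mean of the other 2 libraries of its genotype, and black bars are medians. WT replicate 2 lies low with a median of -0.41, and the points of KO replicate 3 spread most (SD 0.44).

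Ribosomal protein mRNA took a larger part of the KO libraries. The 88 genes held 3.74%, 3.03% and 3.76% of all counts in WT replicates 1, 2 and 3. The figures were 4.07%, 4.35% and 4.19% in KO replicates 1, 2 and 3. Every KO library was above every WT library. With WT replicate 2 left out, the difference between the means fell from 0.695 to 0.456 percentage points. A larger share can come from more RNA of these genes per cell or from a shift between kinds of cells, which cannot be told apart in bulk RNA. The shares were not corrected for transcript GC content or length, whose relation with the fold change is given below. The row *Rn18s-rs5*, which stands for rRNA sequence, held 0.202% to 0.575% of counts in 5 libraries and 2.71% in KO replicate 2. With that row out of the total the difference was 0.728 percentage points.

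**Figure D2:**
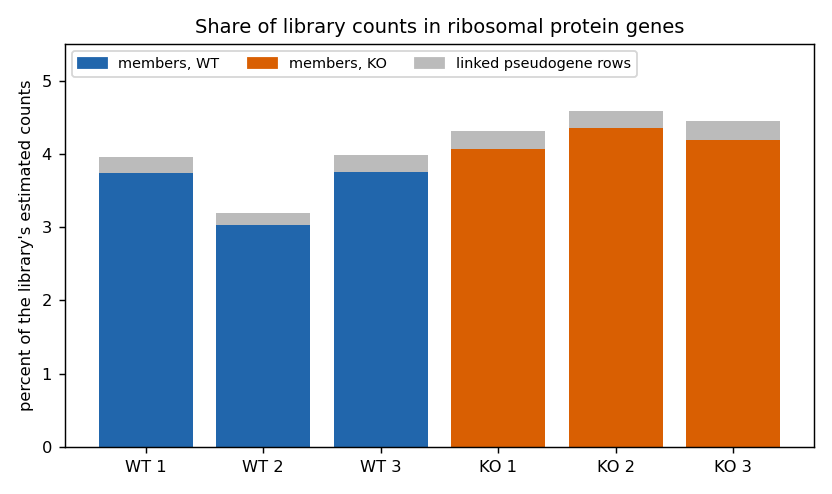
Bars show the percent of each library's estimated counts in the 88 ribosomal protein genes (blue WT, orange KO) with pseudogene rows linked to them on top in grey. All KO libraries (4.07% to 4.35%) sit above all WT libraries (3.03% to 3.76%).

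Gene by gene the differences were small and ran one way. Of the 88 genes, 84 passed the filter on low counts, and 80 of the 84 had a higher fitted level in KO. Their median log2 fold change was 0.30, beside 0.01 over all 13428 genes tested, and they ranged from -0.29 for *Rps27rt* to 1.81 for *Rpl39l*. By edgeR's quasi-likelihood test, 0 of these 84 genes reached an adjusted p under 0.01 with a fold change above 1.3, where 0.00745% of all genes did. The lowest adjusted p was 0.147. At an unadjusted p under 0.05, 43 were higher and 0 lower, against 13.0% of all genes higher and 13.2% lower. WT and KO libraries did not overlap for 52 genes, all higher in KO, against 16.9% of all genes higher and 18.8% lower. DESeq2 placed 2 of the 84 past both limits, *Rpl22l1* and *Rps13*, where 0.961% of all genes passed.

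**Figure D3:**
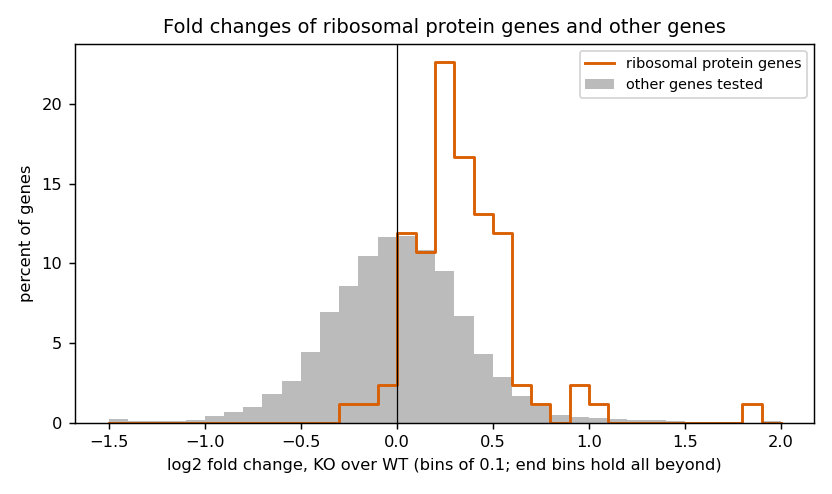
The x axis is the log2 fold change of KO over WT in bins of 0.1, and the y axis the percent of 84 ribosomal protein genes (orange line) or of the other genes tested (grey bars) in each bin. The ribosomal protein genes lie mostly right of 0 (median 0.30) and the other genes are spread about it.

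The size depended on WT replicate 2 more than on KO replicate 3. Without WT replicate 2 the median fell to 0.19, with 72 of 84 genes positive and 27 at an unadjusted p under 0.05 (5.61% of all genes higher). Without KO replicate 2, which held the largest share, 25 had such a p (9.50% of all genes). Leaving out KO replicate 3 gave a median of 0.33, 83 positive and 57 with such a p (8.97% of all genes). With WT replicate 2 and KO replicate 3 both left out, all 84 fitted values were positive, the median was 0.20, and 68 had such a p (8.98% of all genes). These libraries were picked for their values in these same genes, so the count of 68 is not independent of that choice. None of the 84 passed both limits in any of these edgeR fits.

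Transcript GC content moved with the fold change. Over 13176 genes, which share the same libraries and are not independent, the log2 fold change had r = -0.51 with GC content, and over the 84 it had r = -0.34. For transcript length the values were r = -0.20 over all genes and 0.02 over the 84. Correcting the libraries for transcript GC content gave a median of 0.35 and 59 genes with an unadjusted p under 0.05 (12.6% of all genes). *Rps4l* then had an adjusted p of 0.0391 in edgeR's test, and DESeq2 with this correction placed 19 of the 84 past both limits (2.53% of all genes). Ribosomal protein mRNAs are short, and 63 of the 84 had a transcript under 1000 bases. The 797 other coding genes of that length had a median of 0.19, and 27.2% of them were higher at an unadjusted p under 0.05. A correction for length gave the 84 a median of 0.17, with 68 positive and 30 with such a p (12.8% of all genes). Among genes described below, *Rpl12*, *Rpl13a*, *Rpl3*, *Rpl36a* and *Rpl39* were then at 0.16, 0.13, 0.14, 0.17 and 0.10. *Rpl36al*, *Rps4x*, *Rps4l* and *Rpsa* were at 0.26, 0.18, 0.28 and 0.06, and *Rpl10a*, *Rps16* and *Rps27rt* at -0.21, -0.11 and -0.47. With GC correction *Rpl7* was at 0.23. The part of GC content and length in the difference was not tested.

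The 60S proteins belong to the subunit that holds the peptidyl transferase centre and the exit tunnel, and the 40S proteins to the subunit that decodes mRNA. The 50 tested 60S genes had a median log2 fold change of 0.26, and 23 were higher at an unadjusted p under 0.05. For the 34 tested 40S genes the median was 0.34, and 20 were higher at such a p, where 13.0% of all genes were. Without WT replicate 2 and KO replicate 3 the medians were 0.20 and 0.21, and 42 and 26 genes had such a p (8.98% of all genes). The 23 were *Rpl5*, *Rpl6*, *Rpl7*, *Rpl9*, *Rpl10*, *Rpl11*, *Rpl12*, *Rpl13a*, *Rpl14*, *Rpl15*, *Rpl17*, *Rpl19*, *Rpl21*, *Rpl22*, *Rpl22l1*, *Rpl23*, *Rpl23a*, *Rpl24*, *Rpl26*, *Rpl30*, *Rpl35*, *Rpl36al* and *Rpl39l*. Among the 20 were *Rps3a1*, *Rps4l*, *Rps4x*, *Rps6*, *Rps7*, *Rps9*, *Rps13*, *Rps14*, *Rps15*, *Rps15a*, *Rps18*, *Rps24*, *Rps25*, *Rps26*, *Rps27*, *Rps27a* and *Rps27l*. A difference between the subunits was not tested.

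**Figure D4:**
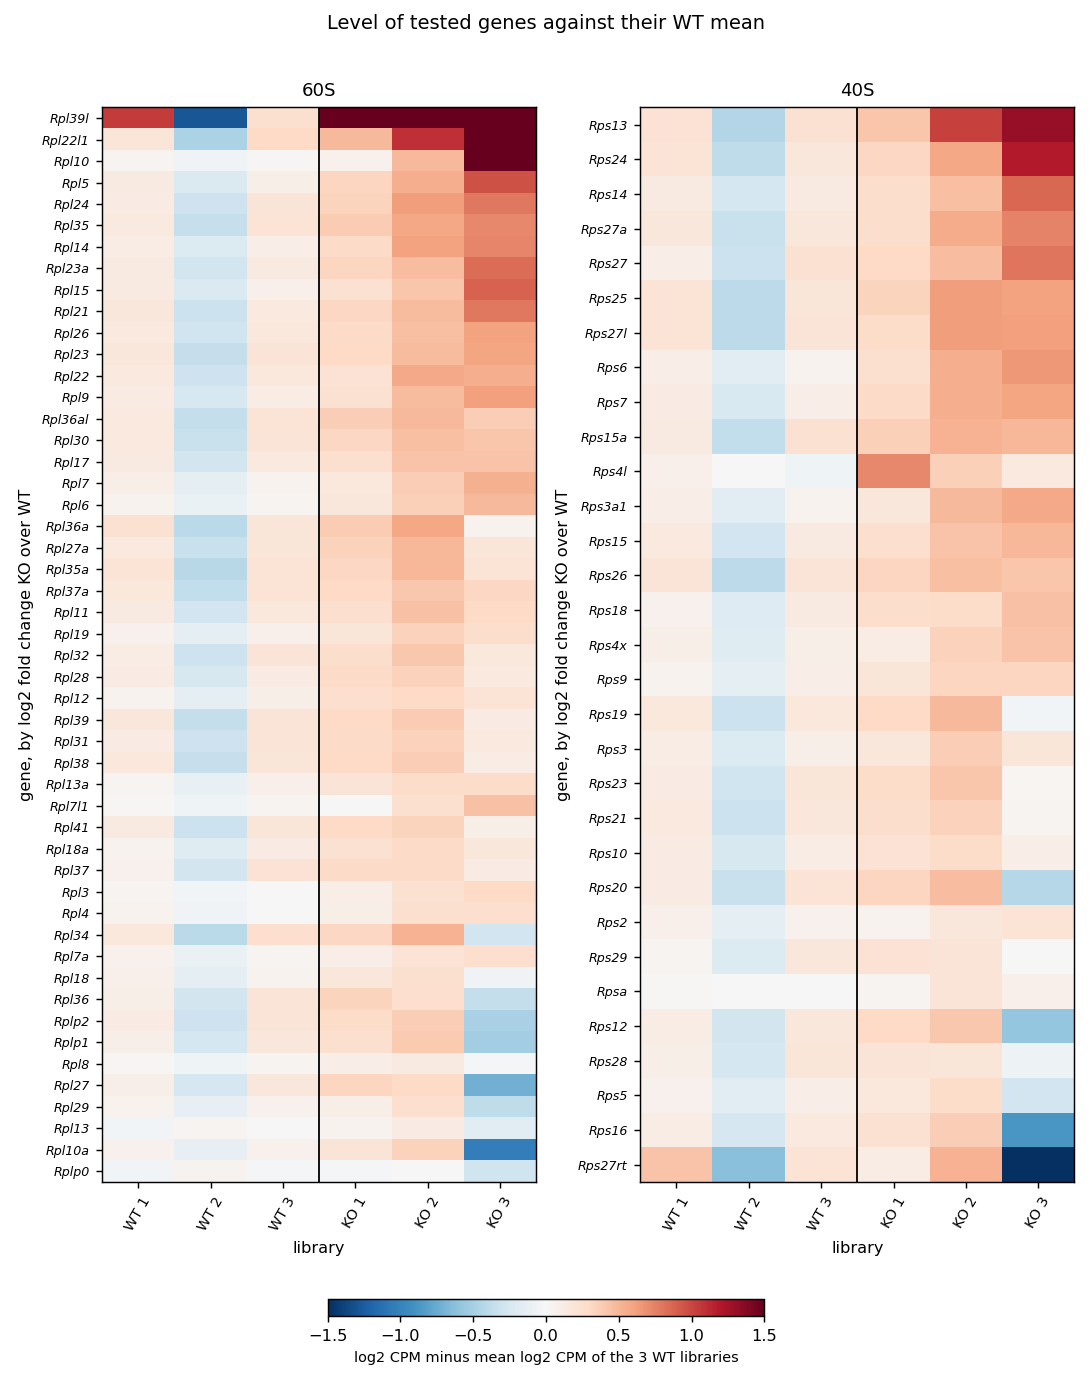
Each row is 1 of 81 tested genes, 60S on the left and 40S on the right, ordered by log2 fold change, and the colour gives log2 CPM in each library minus the mean log2 CPM of the 3 WT libraries, with colours ending at 1.5 either way. WT replicate 2 is blue in most rows, KO replicates 1 and 2 are red in most, and KO replicate 3 runs from dark red to dark blue.

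*Rpl14*, a 60S protein, had the lowest p-value of the set. It was at 379, 305 and 378 CPM in WT replicates 1 to 3 and at 430.2, 536 and 584 CPM in KO replicates 1 to 3. The groups did not overlap, and the log2 fold change was 0.54 (SE 0.14, adjusted p = 0.147). *Rps6*, the 40S protein that S6 kinase phosphorylates downstream of mTORC1, was at 621, 519 and 597 CPM in WT and at 682, 844 and 907 CPM in KO. KO was above WT in every library here too, with a log2 fold change of 0.49 (SE 0.13, adjusted p = 0.147). *Rps7*, a 40S protein that also binds Mdm2, was at 492, 388 and 486 CPM in WT and at 551, 661 and 682 CPM in KO (log2 fold change 0.47, SE 0.13). *Rpl24*, which forms a bridge between the subunits, was at 249, 184 and 261 CPM in WT and at 288, 352 and 396 CPM in KO (0.58, SE 0.16). In all of them WT replicate 2 was the lowest library and KO replicate 3 the highest. With both of these left out, the log2 fold changes were 0.35, 0.32, 0.31 and 0.33, in the order named.

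Promoter and start sequences of RefSeq (GRCm38.p6, where the submitters' processing notes name GRCm39) were matched to 66 of the 88 genes, with 78 annotated starts. A C followed by at least 4 bases that are each C or T was looked for on the sense strand, beginning within 5 bases of the start. It stood at 42.3% of the 78 starts, against 18.4% of all 32851 starts in the table. At 17.9% against 2.51% the start base was itself such a C, whether or not the run began further upstream. Windows of 30 bases, 15 before the start and 15 from it, are shown for 8 genes that the results above and below turn on. Capitals mark the stretch from the earliest such C within 5 bases of the start, where there is one. Letters C or T just before the capitals can belong to the same, longer run.

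Rpl14 (chr9:120571502-120571531, plus strand): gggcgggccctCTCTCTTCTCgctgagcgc
Rps6 (chr4:86857353-86857382, minus strand): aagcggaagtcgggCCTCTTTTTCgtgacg
Rpl22l1 (chr3:28805493-28805522, plus strand): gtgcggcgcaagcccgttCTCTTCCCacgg
Rplp2 (chr7:141447636-141447665, plus strand): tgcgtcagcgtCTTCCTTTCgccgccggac
Rps7 (chr12:28635939-28635968, minus strand): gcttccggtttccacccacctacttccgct
Rps13 (chr7:116334176-116334205, minus strand): gagagcaaacgtcggtgagtggcgtcactt
Rpl5 (chr5:107900513-107900542, plus strand): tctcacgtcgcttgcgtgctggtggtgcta
Rplp0 (chr5:115559452-115559481, plus strand): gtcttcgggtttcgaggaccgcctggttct

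The absence of capitals says only that these letters are not at the annotated start, which can lie some bases away from the one used. Genes with and without the run overlapped in their fold changes. The 30 tested genes with it had a median log2 fold change of 0.26, and the 33 tested genes with a RefSeq start but without it had 0.32. The word CCGGAAG, the core that ETS factors bind, was searched on both strands in the 300 bases from 250 before to 50 after the start. It was in 34.6% of the genes' windows and 8.86% of all windows, and its reverse complement overlapped the pyrimidine run at 1 start. The 26 tested genes that hold it had a median of 0.32, and the 37 without had 0.27.

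Several ribosomal proteins have a paralog with restricted use. *Rpl22l1*, the paralog of *Rpl22* and able to take its place in the ribosome, had the largest fitted difference of the tested genes after *Rpl39l*. It was at 31.5, 19.98 and 34.1 CPM in WT and at 39.1, 59.5 and 79.6 CPM in KO, a log2 fold change of 1.06 (SE 0.27, adjusted p = 0.147). With DESeq2 its adjusted p was 0.00589. No KO library fell within the WT range, and the value was 0.59 without WT replicate 2 and KO replicate 3. *Rpl22* itself, whose protein binds RNA hairpins including that of *Rpl22l1*, was at 177, 129 and 179 CPM in WT and at 186, 237 and 234 CPM in KO (0.44, SE 0.15). *Rpl39l*, a paralog of *Rpl39* best known from male germ cells, was hardly detected. It had 11, 2 and 6 counts in WT and 17, 30 and 19 counts in KO, a log2 fold change of 1.81 (SE 0.50). *Rpl39*, which lines the exit tunnel, was at 188, 131 and 192 CPM in WT and at 206, 219 and 183 CPM in KO, so that KO replicate 3 fell inside the WT range. Its log2 fold change of 0.25 was 0.09 without WT replicate 2.

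*Rps4l*, a paralog of the X-linked *Rps4x*, had 144, 124 and 124 counts in WT and 216, 152 and 148 counts in KO. Its log2 fold change was 0.42 (SE 0.17) and 0.82 with GC correction. Its highest library was KO replicate 1, without which it was at 0.25. *Rps4x* was at 732, 611 and 736 CPM in WT and at 743, 877 and 926 CPM in KO (0.29, SE 0.12, and 0.14 without WT replicate 2 and KO replicate 3). *Rps27* and *Rps27l*, of which the second is a p53 target, had 0.52 (SE 0.17) and 0.49 (SE 0.17) without overlap between the genotypes, and *Rps27l* was at 0.31 without WT replicate 2. *Rps27rt*, a close copy of *Rps27*, went from 13.5 and 17.9 CPM in KO replicates 1 and 2 to 0.866 CPM in KO replicate 3, with 8.10 to 16.7 CPM in WT. Its log2 fold change of -0.29 (SE 0.69) turned to 0.26 without KO replicate 3. *Rpl7l1*, a relative of *Rpl7* with a role in ribosome assembly, had 0.24 (SE 0.12), which was 0.13 without KO replicate 3, beside 0.36 (SE 0.12) for *Rpl7*. *Rpl36al* had 0.39 (SE 0.14) beside 0.33 (SE 0.19) for *Rpl36a*. Without WT replicate 2 these were 0.23 and 0.15, and *Rpl36a* was at 0.20 without KO replicate 2. *Rpl3* had 0.21 (SE 0.10).

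Of the copies that failed the filter, *Rpl10l* and *Rps23rg1* had 0 counts in every library, where 3 counts are 0.150 to 0.169 CPM. *Rpl3l*, the paralog of striated muscle, had 0 to 5 counts and *Rpl27rt* 2.20 to 14.9. The levels per kb of the shortest principal transcript ran over a wide range. The highest means over all libraries were 1736 CPM per kb for *Rps2*, 1628 for *Rpl41*, 1474 for *Rplp1*, 1281 for *Rplp0* and 1258 for *Rpl23a*. At the other end were *Rpl39l* (1.38), *Rps4l* (10.1), *Rpl5* (21.97), *Rps27rt* (31.8) and *Rpl12* (37.1). *Rpl5* and *Rpl12* are core proteins of the 60S subunit, for which the linked pseudogene rows described below held 1.24% to 2.98% of the joint counts of *Rpl12*, and of *Rpl5* at most 0.217% in 5 libraries and 77.2% in KO replicate 3. *Rpl41*, the shortest of the proteins, had a log2 fold change of 0.23 (SE 0.15), which was 0.37 with GC correction, 0.08 with length correction and 0.08 without WT replicate 2. *Rps2*, at the entry of the mRNA channel, had 0.14 (SE 0.11), which was 0.36 and 0.03 with these corrections and 0.08 without that library. *Rpl12* had 0.25 (SE 0.10) and *Rpl23a*, which sits at the mouth of the exit tunnel, 0.54 (SE 0.16).

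The stalk proteins, which recruit the GTPase elongation factors, had fitted differences near 0. *Rplp0* was at 1757, 1865 and 1786 CPM in WT and at 1771, 1802 and 1461 CPM in KO, a log2 fold change of -0.10 (SE 0.11). *Rplp1* was at 756, 593 and 801 CPM in WT and at 838, 932 and 495 CPM in KO (0.07, SE 0.22). *Rplp2* was at 314, 232 and 329 CPM in WT and at 349, 371 and 205 CPM in KO (0.08, SE 0.22). KO replicate 3 was the lowest library for all 3 genes. Without it and WT replicate 2 the log2 fold changes were 0.01, 0.18 and 0.17, so the sign for *Rplp0* turned. With GC correction they were -0.02, 0.27 and 0.19, and with length correction -0.18, -0.09 and -0.08.

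Some members act outside the ribosome. Free Rpl5 and Rpl11, with 5S rRNA, hold back Mdm2 and so stabilise p53. *Rpl5* was at 38.7, 30.2 and 37.3 CPM in WT and at 44.1, 51.4 and 68.0 CPM in KO (log2 fold change 0.62, SE 0.17, and 0.39 with GC correction). *Rpl11* was at 454, 337 and 458 CPM in WT and at 489, 559 and 507 CPM in KO (0.32, SE 0.13), and its log2 fold change was 0.18 without WT replicate 2 and 0.19 with length correction. Of the 8 tested genes of the p53 pathway, 0 were higher and 3 lower at an unadjusted p under 0.05, where 13.0% of all genes were higher and 13.2% lower. They were *Phlda3* (-0.59, SE 0.18), *Cdkn1a*, the cell cycle inhibitor p21 (-0.28, SE 0.10) and *Zmat3* (-0.25, SE 0.09). With GC correction 1 of the 8 was lower (13.8% of all genes), *Phlda3* and *Cdkn1a* were at -0.13 each and *Zmat3* at -0.33, and the median of the list went from -0.19 to -0.06. *Rpl13a*, which can leave the ribosome to silence inflammatory mRNAs in macrophages, was at 632, 570 and 652 CPM in WT and at 704, 744 and 745 CPM in KO (0.24, SE 0.09). *Rps3*, which also takes part in DNA repair and NF-κB binding, had 0.24 (SE 0.12), which was 0.14 without WT replicate 2. *Rpsa*, the laminin receptor precursor, had 0.11 (SE 0.10), which was 0.32 with GC correction and 0.06 without KO replicate 2.

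Reads of ribosomal protein mRNAs also match processed pseudogenes, which are copies of the mRNA scattered over the genome. Values of 75 of the 88 genes were not whole in at least 1 library. There were 818 rows linked to 82 of the genes by the protein they match or by a -ps name, 813 of them with a pseudogene biotype. The 5 others are named as pseudogenes but carry another biotype, among them *Rpl10-ps3*, listed as protein coding, which held most linked counts of *Rpl10*. They are called linked pseudogene rows here, and for 19 genes such rows held at least 5% of the joint counts in some library. The split between gene and pseudogene rows differed most in KO replicate 3. For *Rpl10*, a late-joining 60S protein, linked rows held 69.8% to 75.4% of the joint counts in the other libraries and 43.4% in KO replicate 3. For *Rpl10a* they held 23.2% to 26.0% and then 56.2%, and for *Rpl27* 15.2% to 21.4% and then 57.2%. For *Rpl15*, as for *Rpl10*, they held less in KO replicate 3, at 0.53% against 21.4% to 24.5%.

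**Figure D5:**
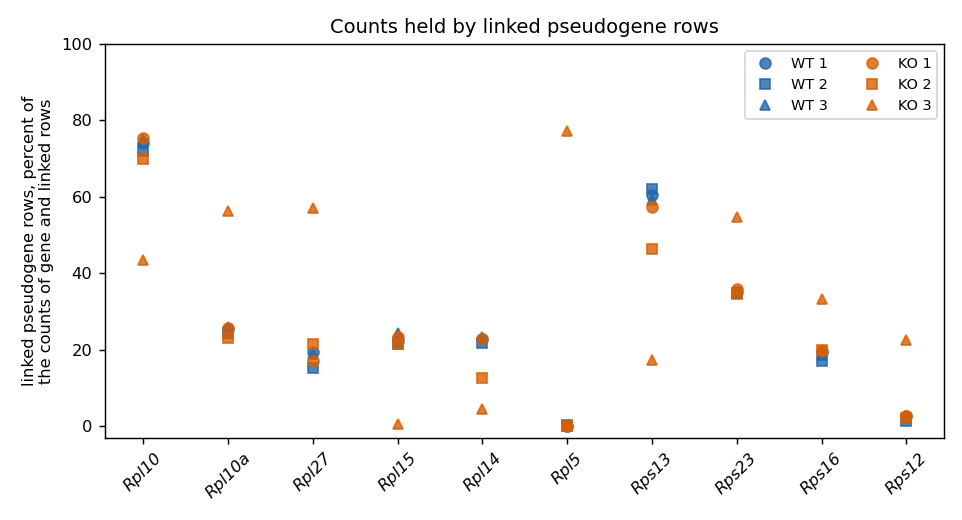
The y axis gives the counts of linked pseudogene rows as a percent of the counts of the gene and its linked rows together, for 10 genes with large shares, by library (blue WT, orange KO, shape for the replicate). KO replicate 3 departs from the other 5 libraries in every one of them, upward for 6 genes and downward for *Rpl10*, *Rpl14*, *Rpl15* and *Rps13*, while KO replicate 2 departs downward for *Rpl14* and *Rps13*.

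The split decided some of the largest single values. *Rps13*, a 40S protein, had 2195, 1272 and 2107 counts in WT and 2417, 3357 and 4594 counts in KO (log2 fold change 0.93, SE 0.24, DESeq2 adjusted p = 0.00866). Its linked rows held 57.4% to 62.0% of the joint counts in the WT libraries and KO replicate 1, 46.4% in KO replicate 2 and 17.4% in KO replicate 3. Together, gene and linked rows had 5563, 3349 and 5179 counts in WT and 5670, 6268 and 5564 in KO, and the log2 fold change was 0.36 (SE 0.17). *Rpl10* went from 0.91 (SE 0.35), or 0.29 without KO replicate 3, to 0.34 (SE 0.13) in the same way, and *Rpl14* from 0.54 to 0.37. *Rpl10a* and *Rps16*, a 40S protein whose tail reaches the tRNA in the P site, turned from -0.05 and -0.004 to 0.10 and 0.07. *Rpl5* moved the other way, to 1.89 (SE 0.65), since its linked row *Gm15500* had 4520 counts in KO replicate 3 and 0 in the other libraries.

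Over the whole set the linked rows changed little. With their counts added, the median log2 fold change was 0.32, 81 of 84 were positive and 46 had an unadjusted p under 0.05 (13.0% of all genes). The 65 genes whose linked rows stayed under 5% had a median of 0.32, and 36 of them had such a p without any addition. The 19 others had a median of 0.25, and 7 had such a p. Without WT replicate 2 and KO replicate 3 the medians were 0.19 and 0.22, with 51 and 17 such genes (8.98% of all genes).

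Genes that work with ribosomal proteins were read from lists. Counts are at an unadjusted p under 0.05 with all libraries, where 13.0% of all genes were higher and 13.2% lower. *Fau*, which encodes a 40S protein fused to a ubiquitin-like part, had a log2 fold change of 0.11 (SE 0.18), and *Rack1*, a 40S scaffold, had -0.07 (SE 0.11). Of 30 initiation factors, 12 were higher and 0 lower, with a median of 0.17. With GC correction the median was 0.10, with 11 higher (12.6% of all genes), and without WT replicate 2 and KO replicate 3 it was 0.08, with 8 higher (8.98% of all genes). Among them were *Eif1* (0.41, SE 0.11), *Eif5* (0.50, SE 0.14) and *Eif1ax* (0.42, SE 0.13), which act in start codon choice. With GC correction these were 0.44, 0.20 and 0.10. Of 11 elongation and termination factors 5 were higher and 1 lower (median 0.17), with *Eef1b2* (0.41, SE 0.12) and *Eef1d* (0.28, SE 0.09), exchange factors of eEF1A, and *Etf1*, the release factor (0.32, SE 0.14, and 0.14 with GC correction), in front. The lower one was *Eef2* (-0.35, SE 0.15, and -0.12 with GC correction). Without both libraries 3 of the 11 were higher and 0 lower (median 0.11).

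Ribosome assembly and rRNA synthesis were read in the same way. Of 37 nucleolar assembly factors, 17 were higher and 1 lower (13.0% and 13.2% of all genes), with a median of 0.26. The median was 0.14 with GC correction and 0.13 without WT replicate 2 and KO replicate 3, when 11 were higher (8.98% of all genes). *Gnl3*, nucleostemin, was at 0.46 (SE 0.12), *Nop10*, of the snoRNA complexes that modify rRNA, at 0.49 (SE 0.14), and *Tcof1*, the treacle protein that supports rRNA transcription, was at -0.54 (SE 0.15). With GC correction they were at 0.30, 0.38 and -0.27. Of 16 chaperones and late assembly factors 5 were higher and 0 lower (median 0.16), among them the 60S export adaptor *Nmd3* (0.53, SE 0.15), *Bccip* (0.34, SE 0.13) and *Riok2* (0.42, SE 0.16). These were 0.19, 0.18 and 0.20 with GC correction, and 1 of the 16 was higher without both libraries. RNA polymerase I and its factors had 2 higher and 1 lower of 14 (median 0.06), with *Taf1d* at 0.64 (SE 0.18), *Taf1c* at -0.72 (SE 0.21) and *Polr1d* at 0.35 (SE 0.11). *Taf1d* was at 0.36 and *Taf1c* at -0.34 with GC correction. The snoRNA host genes, many of which carry a TOP start as well, had 7 higher and 0 lower of 14 rows (median 0.39, and 0.24 with GC correction). Without both libraries 5 were higher (median 0.23). *Snhg1* (0.80, SE 0.18), *Zfas1* (0.54, SE 0.15) and *Gas5* (0.54, SE 0.16) led them.

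Genes that control TOP mRNAs came on both sides of 0. Of 17 genes of mTORC1 and TOP control 4 were higher and 4 lower (13.0% and 13.2% of all genes), with a median of -0.04. *Ssb*, the La protein, was at 0.67 (SE 0.22), *Mtor* at -0.47 (SE 0.16) and *Tsc2*, an inhibitor of the pathway, at -0.43 (SE 0.15). With GC correction they were at 0.29, -0.35 and -0.28, and 1 of the 17 was higher and 4 lower (12.6% and 13.8% of all genes). Of 11 tested ribosome quality control genes 0 were higher and 1 lower (median -0.04), which was *Gcn1*, a sensor of collided ribosomes (-0.59, SE 0.20). *Ascc2*, which helps take collided ribosomes apart, was at -0.20 (SE 0.09), and *Nemf*, which marks stalled chains, at 0.26 (SE 0.14). With GC correction these 3 were at -0.32, -0.08 and 0.01, and 2 of the 11 were higher and 2 lower (12.6% and 13.8% of all genes). *Edf1*, which is recruited to collided ribosomes, went from -0.04 to 0.34. No gene of the lists on translation, assembly and control passed both limits in edgeR's test.

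Markers of other cells and of maturation moved beside these values. All 8 macrophage markers were detected, summing to 16452 to 17734 CPM of the library total in WT and 15156 to 17349 in KO, and 5 were lower in KO at an unadjusted p under 0.05 (13.2% of all genes), *Mertk*, *Fcgr1* and *Adgre1* first. The 10 osteoclast markers summed to 5159 to 5507 CPM in WT and 6719 to 7412 in KO, and 6 were higher (13.0% of all genes), with *Dcstamp*, *Ctsk* and *Atp6v0d2* in front. Neutrophil markers summed to 1293 to 1466 CPM in WT and 1738 to 1995 in KO, with 5 of 9 tested higher and 2 lower. *S100a9* and *Retnlg* led the higher ones, and the lower ones were *Mpo* (-0.42, SE 0.16) and *Prtn3* (-0.46, SE 0.18). B cell markers summed to 28.0 to 32.1 CPM in WT and 34.0 to 37.2 in KO, and 1 of 6, *Ighm*, was higher. Stromal markers summed to 14.0 to 20.03 CPM in WT and 9.80 to 16.2 in KO, and 1 of 2 tested, *Col1a2*, was lower (-0.42, SE 0.17). T or NK cell markers summed to 5.05 to 7.37 CPM over all libraries and erythroid markers to 0.212 to 0.739, with 1 erythroid gene at 0 throughout. The part of maturation and of other cells in the ribosomal protein values was not tested.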

How the data were processed

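RNA of 3 WT and 3 KO OCP cultures was sequenced from stranded mRNA libraries. The authors deposited 1 table of estimated counts per gene, not normalized. The submitters' processing notes name fastp, HISAT2, StringTie and RSEM and the build GRCm39, without versions. Counts of reads that fit several rows are divided by such tools, so a gene and its pseudogene copies share error. Groups follow the genotype in the labels. The ribosomal protein genes, gene lists and alternatives were chosen with earlier results of these data known.

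Estimated counts were rounded and tested with edgeR 4.0.16 in R 4.3.3 (filterByExpr, TMM, glmQLFit with legacy = FALSE, glmQLFTest, two-sided, Benjamini-Hochberg over 13428 genes). Limits were an adjusted p under 0.01 and a fold change above 1.3. DESeq2 1.42.0 and limma-voom (limma 3.58.1) were alternatives, as were other scalings and filters, a replicate block, each library left out, and per-library splines (5 degrees of freedom) on the GC content and length of GENCODE M21 transcripts (GRCm38). Lists and shares got no test. Scripts were tested on simulated data. Members named singly were those past the limits with edgeR or DESeq2, the 8 with the lowest p in each direction, the 5 highest and 5 lowest per length, paralog pairs, the stalk, members with a role outside the ribosome, and those that failed the filter. Up to 3 genes were named per list. *Rpl15*, *Rpl27*, *Gm15500*, *Rpl10-ps3*, *Edf1*, *Eef2*, *Mpo*, *Prtn3* and the 10 genes plotted with linked rows were chosen after their values were seen. Libraries of 17757351 to 19998611 counts put 3 counts at 0.150 to 0.169 CPM, which covers counting error only. Single values of some genes are not reported here.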

Additional observations from a re-analysis of the deposited data

Results flagged for a closer look

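Pseudogene rows, which enter the comparison of ribosomal protein genes only where their counts were added, held counts of their own. *Gm15500*, a processed pseudogene row linked to *Rpl5*, had 4520.37 counts in KO replicate 3 and 0 in the other 5 libraries, and *Rpl5* itself had 1336 counts in that library against 846 and 894 in the other KO libraries. All 818 linked rows together held 0.243% of counts as a mean of the KO libraries (SD 0.0145) and 0.202% as a mean of the WT libraries (SD 0.0331). The WT value of replicate 2 was 0.164%, and the other WT libraries had 0.220% and 0.222%. Both were noted because they are signals outside the main comparison, at a level above that of WT, and the cause was not tested.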

How the results depend on the processing

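Over 24 alternatives with a test the median log2 fold change of the ribosomal protein genes stayed between 0.17 and 0.36, and 68 to 84 of 84 genes had a positive value. The difference in share of counts stayed between 0.456 and 0.845 percentage points over 11 alternatives. The number past both limits was 0 in edgeR and limma-voom, 2 with DESeq2 and 19 with DESeq2 and the GC correction. The number higher at an unadjusted p under 0.05 was 43, and 25 (without KO replicate 2) to 57 (without KO replicate 3) with 1 library left out. It was 68 without WT replicate 2 and KO replicate 3, which was chosen after seeing the data, as were the linked-row fits. With the replicate block it was 39 (12.6% of all genes higher) and 0 passed both limits. The labels do not say that equal numbers were paired, and same-numbered deviations had r = -0.28, 0.11 and 0.22 over all genes, so the numbers were not taken as pairs. Of 34 named genes 6 changed sign somewhere. *Rpl10a* was 0.044 with GC correction, 0.048 with DESeq2 and GC correction, 0.098 with -ps rows and 0.098 with linked rows added, and 0.21 without both libraries. *Rps16* was 0.00094 with GC correction, 0.0043 with DESeq2 and GC correction, 0.072 with -ps rows and 0.072 with linked rows added, and 0.18 without both libraries. *Rplp1* was -0.092 and *Rplp2* -0.083 with length correction, and *Rplp2* was -0.0050 with GC and length corrections. Without both libraries *Rps27rt* was 0.0074 and *Rplp0* 0.012. Leaving out 1 library at a time, values ran from -0.30 to 0.27 for *Rpl10a*, -0.23 to 0.29 for *Rps16*, -0.16 to -0.013 for *Rplp0*, -0.11 to 0.30 for *Rplp1*, -0.073 to 0.31 for *Rplp2* and -0.87 to 0.26 for *Rps27rt*. The cause was not tested.

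The 3 libraries per genotype and a common biological coefficient of variation of 0.142 limit what single genes can show. Most of the fitted differences were under the fold limit of 1.3 (0.379 on the log2 scale). Genes with near-identical copies, *Rps27rt* and *Rpl39l* among them, carry the error of divided reads or of few counts.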
